A study of Mus musculus with 12 samples.

Results

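Messenger RNA of 9 iron handling genes was followed in left kidneys of mice with and without a blocked ureter. The genes are Tfrc, Slc11a2, Trf, Fth1, Ftl1, Hmox1, Slc40a1, Cp and Hamp. They were taken by symbol from the 55471 gene rows of the deposited table, where each matched 1 row. The 4 groups were kidneys of Sprr2f knockout (KO) mice at day 5 of unilateral ureteral obstruction (n = 3) and at day 0 (n = 4), and kidneys of wild type (WT) mice at day 5 (n = 3) and day 0 (n = 2). All mice were of strain C57/BL6, the submitters give an age of 8 to 12 weeks in a protocol naming only KO mice, and obstruction was made with a clamp on the left ureter. The labels do not say whether day 0 kidneys had sham surgery, in which cells Sprr2f was deleted, or whether replicates came from separate animals. P-values therefore speak of the spread among samples, which may be technical.

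Cells take up iron that is bound to transferrin through the transferrin receptor, move it out of endosomes through a divalent metal transporter, store it in ferritin cages and release it through ferroportin. Ferroportin is degraded when it binds hepcidin, a peptide hormone made mainly in the liver. Kidney tubules recover filtered iron and transferrin, and heme oxygenase frees iron from heme that reaches the kidney. Much of this is set after transcription: when iron is scarce, iron regulatory proteins bind stem-loops called iron-responsive elements, which blocks translation of messages that carry one in the 5′ untranslated region and stabilizes the transferrin receptor message, which carries several in its 3′ untranslated region.

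The elements are shown because they divide these genes into messages whose RNA level and protein level need not move together. They were read from GENCODE M21 transcripts on GRCm38, searching the transcript strand for an unpaired C, 5 further bases and the loop CAGTGN, where the 5 bases before the loop pair with the 5 after it. Capitals mark the 6-base loop, and each sequence is 28 bases long, written 5′ to 3′ with T for U. The genes Fth1, Ftl1 and Slc40a1, which store or export iron, carried 1 element each in the 5′ untranslated region, at chr19:9982733-9982760 (Fth1, plus strand), chr7:45459779-45459806 (Ftl1, minus strand) and chr1:45925465-45925492 (Slc40a1, minus strand).
Fth1: tcctgcttcaaCAGTGCttgaacggaac
Ftl1: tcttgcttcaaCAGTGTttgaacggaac
Slc40a1: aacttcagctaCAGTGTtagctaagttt
The Tfrc 3′ untranslated region held 4 on the plus strand of chromosome 16, starting at 32631220, 32631599, 32631664 and 32631711.
Tfrc, start 32631220: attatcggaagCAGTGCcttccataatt
Tfrc, start 32631599: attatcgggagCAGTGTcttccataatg
Tfrc, start 32631664: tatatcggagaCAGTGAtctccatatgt
Tfrc, start 32631711: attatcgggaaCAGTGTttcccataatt
The 3′ untranslated region of the Slc11a2-205 transcript held 1 at chr15:100395153-100395180 on the minus strand, which paired only when 1 unpaired base was allowed.
Slc11a2: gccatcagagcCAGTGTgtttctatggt
Among all genes, a fully paired match occurred in the 5′ untranslated region of 31 of 20916 genes (0.148%) and in the 3′ untranslated region of 129 of 21039 (0.613%). Matches that paired only with 1 unpaired base occurred in 0.244% and 1.11%, whereas the bare motif occurred in 12.0% and 35.9%. A match is a description of these letters. Gene-level values join the Slc11a2 transcripts that end with and without the element.

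Each library held 16567256 to 19398882 reads counted to genes, and 1 read was worth 0.0515 to 0.0604 CPM (read counts scaled to a common library total). Values below are scaled CPM, the deposited CPM divided by a TMM factor, which was 1.13 to 1.19 at day 5 and 0.795 to 0.897 at day 0. Sprr2f stood at 0, 2.17 and 4.07 CPM in KO and 27.1, 26.9 and 58.8 CPM in WT at day 5, and was at most 0.262 CPM in every day 0 library. The series title names female mice, yet 7 libraries held Y-linked transcripts and 5 held Xist. The Y-linked ones were all 4 KO day 0 libraries and 1 library of every other group (KO day 5 replicate 2, WT day 5 replicate 3 and WT day 0 replicate 1). Genotype at day 0, obstruction in KO and the interaction are therefore partly tied to this pattern. Macrophage markers summed to 1280 to 1799 CPM in KO and 1262 to 1634 CPM in WT at day 5, against 178 to 244 CPM in KO and 178 to 186 CPM in WT at day 0, and all 12 of 12 were higher at day 5 in both genotypes. Proximal tubule markers summed to 10320 to 13228 CPM in KO and 5097 to 11208 CPM in WT at day 5, against 42888 to 52545 CPM in KO and 23148 to 41057 CPM in WT at day 0, with 11 of 12 lower in KO and 12 of 12 lower in WT. In whole kidney RNA, fewer cells of a type and less RNA per cell cannot be told apart, and the part of these shifts in the results below was not tested.

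After 5 days of obstruction the kidneys held less message for iron uptake by the transferrin receptor and for ferritin, and more for the circulating iron proteins ceruloplasmin and transferrin. Hamp passed the filter on low values only through the WT day 0 libraries, where it was high, and is left out of these counts. In KO kidneys 4 of the other 8 genes rose (Cp, Trf, Slc40a1 and Hmox1) and 4 fell (Tfrc, Slc11a2, Fth1 and Ftl1) at a Benjamini-Hochberg adjusted p under 0.05 in limma. Among all 18093 tested genes 29.4% rose and 25.4% fell, 54.8% in all, so that most genes moved. In WT kidneys 3 of the 8 rose (Cp, Trf and Hmox1) and 4 fell (Tfrc, Slc11a2, Fth1 and Ftl1), against 24.5% and 22.6% of all tested genes (47.1% in all). The libraries of day 5 and day 0 did not overlap for 8 of these 8 genes in KO and 8 in WT, against 55.1% and 65.1% of all tested genes. The median log2 change of the 8 genes was 0.00 in KO and -0.09 in WT, against 0.07 and 0.04 over all tested genes. None of the 9 genes was called between genotypes on either day.

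**Figure D1:**
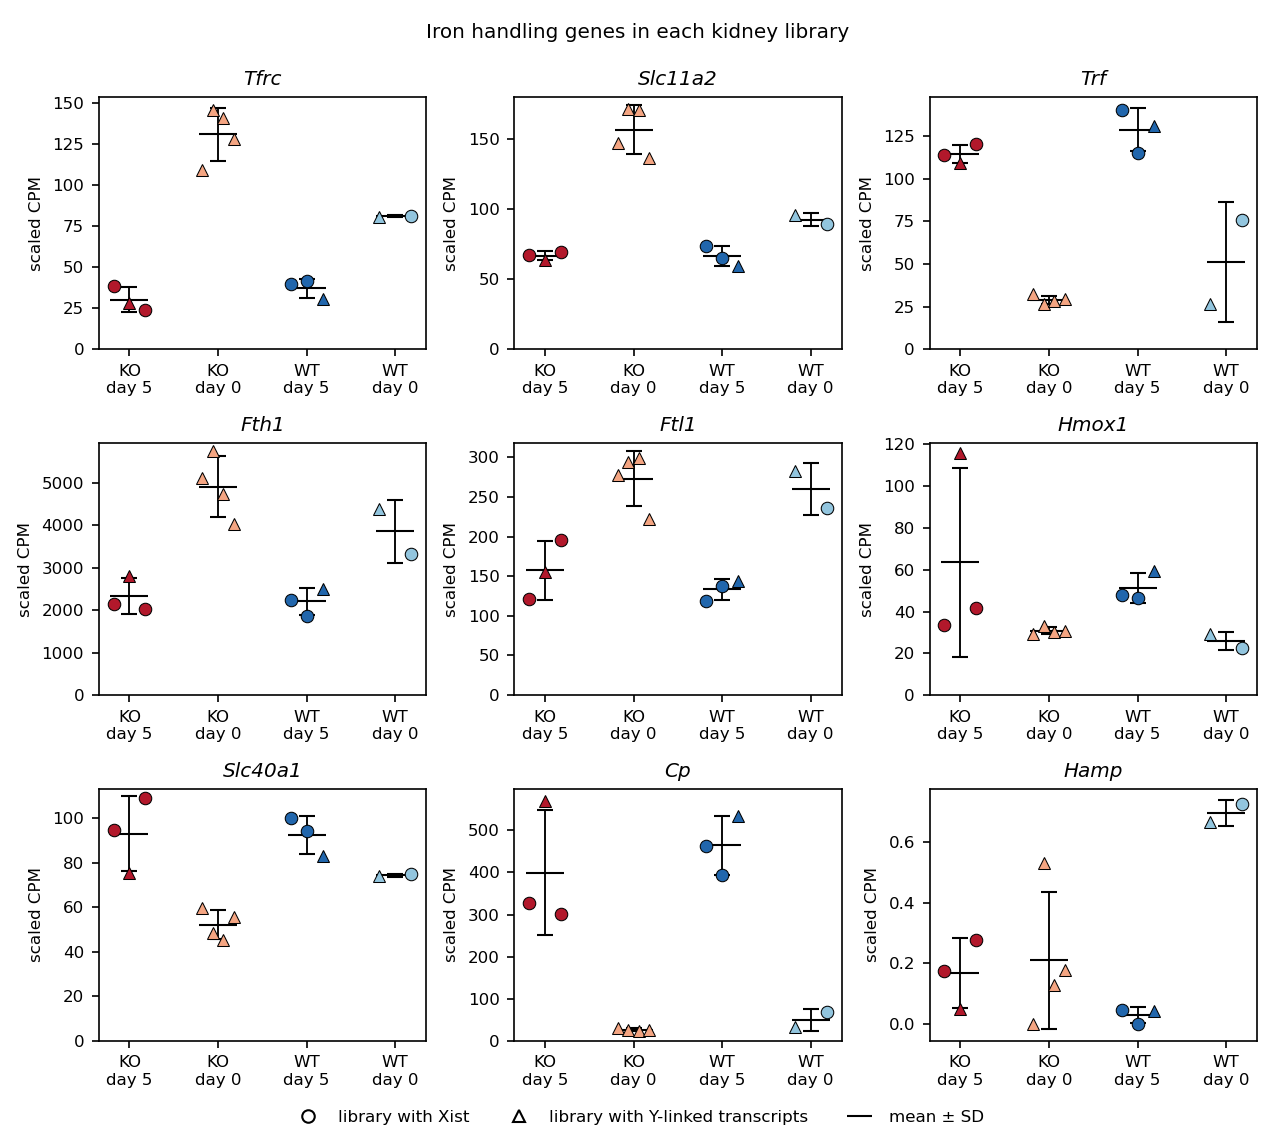
Scaled CPM of each iron handling gene in every library, by group, shown with the group mean, where marker shape gives the sex-chromosome transcript pattern. Tfrc stood at 24.0 to 38.6 in KO and 30.4 to 41.4 in WT at day 5, under every day 0 library (80.3 to 145), and Cp at 302 to 571 in KO and 395 to 534 in WT at day 5, above every day 0 library (22.9 to 69.0).

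Tfrc (chromosome 16, 32608920 to 32632794, plus strand) encodes transferrin receptor 1, which carries iron-loaded transferrin into the cell. It stood at 38.6, 27.9 and 24.0 scaled CPM in KO kidneys at day 5, against 109, 145, 141 and 128 in KO kidneys at day 0. In WT kidneys it stood at 39.5, 41.4 and 30.4 at day 5, against 80.3 and 81.2 at day 0. All 6 obstructed kidneys were below all 6 day 0 kidneys, and the 4 KO day 0 kidneys were the highest of all. Tfrc fell by 2.12 ± 0.16 (SE) on the log2 scale in KO, to 0.231 of the day 0 level (limma adjusted p = 2.67e-07), and by 1.13 ± 0.19 in WT, to 0.458 of it (limma adjusted p = 0.000294). Group means were 30.2 ± 7.54 in KO day 5 (SD, n = 3), 131 ± 16.3 in KO day 0 (n = 4), 37.1 ± 5.89 in WT day 5 (n = 3) and 80.8 ± 0.643 in WT day 0 kidneys (n = 2). KO day 0 was thus the highest and WT day 0 next, and the day 5 groups overlapped.

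Slc11a2 (chromosome 15, 100387898 to 100425072, minus strand) encodes DMT1, which moves iron across the endosomal membrane and, in the gut, the brush border. Its scaled CPM was 67.5, 63.7 and 69.5 in KO at day 5, against 147, 172, 171 and 137 in KO at day 0, and 74.1, 65.4 and 59.8 in WT at day 5, against 95.9 and 89.1 in WT at day 0. Day 5 libraries of both genotypes lay in 1 narrow band, while the day 0 libraries of KO and WT lay apart from it and from each other. It fell by 1.22 ± 0.10 on the log2 scale in KO (limma adjusted p = 5.01e-07) and by 0.48 ± 0.12 in WT (limma adjusted p = 0.00430). The WT fall depended on scaling: with library size alone it was -0.06 (limma adjusted p = 0.652), and in Xist libraries only -0.33 (limma adjusted p = 0.0573). An antisense gene, Gm5475, overlaps Slc11a2 and held 0.429 to 4.50 CPM. Whether counting used strand is not given in the sources used here.

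Trf (chromosome 9, 103204001 to 103230444, minus strand) encodes transferrin, the carrier of iron in plasma, made mainly in liver and also by oligodendrocytes. It stood at 114, 109 and 120.0 scaled CPM in KO at day 5, against 32.1, 26.5, 28.1 and 29.6 in KO at day 0. In WT it stood at 140.0, 115 and 131 at day 5, against 26.2 and 76.0 at day 0. The days did not overlap, but the 2 WT day 0 libraries stood far apart. The low one was Y-linked, as were all 4 KO day 0 libraries, and the high one held Xist. Trf rose by 1.96 ± 0.25 on the log2 scale in KO, 3.89-fold (limma adjusted p = 2.55e-05), and by 1.51 ± 0.30 in WT, 2.85-fold (limma adjusted p = 0.00103). The WT change was 0.75 without WT day 0 replicate 1 and 2.27 without replicate 2. Each of these fits leaves a single WT day 0 library and so holds no spread of that group. Hepatocyte markers summed to 97.1 to 112 CPM in KO and 78.4 to 142 CPM in WT at day 5, against 170 to 252 CPM in KO and 133 to 134 CPM in WT at day 0. Their 8 genes split, with 2 higher and 3 lower in KO and 2 higher and 2 lower in WT: Ttr, which carried much of the day 0 sum, changed by -3.81 in KO and -3.19 in WT, and Fgb by 2.93 in KO and 2.76 in WT. Oligodendrocyte and Schwann cell markers summed to 39.4 to 46.0 CPM in KO and 45.8 to 50.4 CPM in WT at day 5, against 12.1 to 18.6 CPM in KO and 20.7 to 21.5 CPM in WT at day 0, and the part of either list in the Trf values was not tested. Of the 5 oligodendrocyte and Schwann cell markers 4 could be tested, of which 2 were higher in KO and 1 in WT. Of the distinct 50-base runs of Trf, 59.4% also occur in other genes, among them the overlapping same-strand gene Gm20425. The deposited table has no row named Gm20425, and the annotation release used for counting is not stated. The share of Trf reads that was counted is therefore uncertain.

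Fth1 (chromosome 19, 9980598 to 9985098, plus strand) encodes the ferritin heavy chain, which oxidizes iron as it enters the ferritin cage. Its scaled CPM was 2152, 2807 and 2035 in KO at day 5, against 5114, 5739.8, 4745 and 4031 in KO at day 0. In WT it was 2250.3, 1864 and 2508 at day 5, against 4379 and 3333 at day 0. The lowest day 0 library, 3333 in WT, was above the highest day 5 library, 2807 in KO. Fth1 fell by 1.08 ± 0.18 on the log2 scale in KO (limma adjusted p = 0.000303) and by 0.80 ± 0.22 in WT (limma adjusted p = 0.00909). The WT fall was not called with library size alone (-0.38, limma adjusted p = 0.0975), in Y-linked libraries only (-0.81, limma adjusted p = 0.0644), or without WT day 0 replicate 1 (-0.61, limma adjusted p = 0.105).

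Ftl1 (chromosome 7, 45457944 to 45459884, minus strand) encodes the ferritin light chain, which helps the iron core form. It stood at 122, 155 and 195 scaled CPM in KO at day 5, against 277, 294, 299 and 222 in KO at day 0, and at 119, 138 and 144 in WT at day 5, against 283 and 236 in WT at day 0. The days did not overlap in either genotype. Ftl1 fell by 0.81 ± 0.15 on the log2 scale in KO (limma adjusted p = 0.000578) and by 0.96 ± 0.18 in WT (limma adjusted p = 0.000787). Its level is uncertain, since 58.4% of its 50-base runs occur in 17 other genes, among them the ferritin pseudogenes Ftl1-ps1, Ftl1-ps2 and Ftl2-ps. The pseudogene row Ftl1-ps1 held 0.506 to 2.01 CPM. Per kilobase of transcript, Fth1 was 16.0 ± 4.49 times Ftl1 in KO day 5, 18.8 ± 1.62 in KO day 0, 17.3 ± 2.88 in WT day 5 and 15.4 ± 1.02 in WT day 0 kidneys (SD), ranges that overlapped.

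Hmox1 (chromosome 8, 75093621 to 75100589, plus strand) encodes heme oxygenase 1, the inducible enzyme that opens heme and frees its iron. It stood at 33.5, 116 and 41.8 scaled CPM in KO at day 5, against 29.4, 33.0, 30.0 and 30.7 in KO at day 0, and at 47.8, 46.3 and 59.6 in WT at day 5, against 29.1 and 22.7 in WT at day 0. The days did not overlap, but in KO the lowest day 5 kidney was within 1 scaled CPM of the highest day 0 kidney, and KO day 5 replicate 2 stood far above the other two. That library was the Y-linked one of its group and had the highest macrophage marker sum of all libraries, 1799 CPM, against 1394 and 1280 CPM in the other KO day 5 libraries. The part of either in the Hmox1 value was not tested. Hmox1 rose by 0.82 ± 0.31 on the log2 scale in KO (limma adjusted p = 0.0383) and by 0.97 ± 0.37 in WT (limma adjusted p = 0.0444). Without KO day 5 replicate 2 the KO change was 0.28 ± 0.13 (limma adjusted p = 0.0954). In WT it was 0.99 in edgeR on recovered reads (adjusted p = 0.0611) and 0.97 in DESeq2 (adjusted p = 0.0826), so both calls were marginal. With the sex-chromosome pattern as a covariate the changes were 1.36 ± 0.23 in KO (limma adjusted p = 0.000255) and 1.11 ± 0.23 in WT (limma adjusted p = 0.00132). Erythroid markers summed to 4678, 1294 and 295 CPM in the WT day 5 libraries, against 263 and 261 CPM in WT day 0, and were at most 331 CPM in every KO library. Of the 8 tested erythroid markers 1 was higher and 1 lower in KO, and 6 were higher and 1 lower in WT. The lower one was Slc4a1, which changed by -2.08 in KO and -2.89 in WT. At day 0 it stood at 54.1 to 67.9 scaled CPM in KO and 73.8 to 90.8 in WT. The day 0 erythroid sums thus include a gene that moved against the other called markers. Whether Slc4a1 follows blood content in these kidneys was not tested, so the sums are no measure of it. The part of the erythroid markers in the Hmox1 values was not tested.

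Slc40a1 (chromosome 1, 45908068 to 45926523, minus strand) encodes ferroportin, the known exporter of iron from cells. Its scaled CPM was 94.96, 75.4 and 109 in KO at day 5, against 59.6, 48.6, 45.2 and 55.5 in KO at day 0, and 100.1, 94.4 and 83.2 in WT at day 5, against 74.0 and 74.9 in WT at day 0. Day 5 kidneys of both genotypes shared 1 range, and the KO day 0 kidneys were the lowest. It rose by 0.82 ± 0.13 on the log2 scale in KO (limma adjusted p = 0.000129). In WT the change was 0.31 ± 0.15 and did not pass (limma adjusted p = 0.110), although the libraries did not overlap. That WT change passed with library size alone (0.73, limma adjusted p = 0.00225), with only the WT groups in the fit (0.30, limma adjusted p = 0.0460) and in Xist libraries only (0.39, limma adjusted p = 0.0349). The WT and KO changes were not shown to differ (interaction 0.51 ± 0.20, limma adjusted p = 0.619).

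Cp (chromosome 3, 19957054 to 20009145, plus strand) encodes ceruloplasmin, a copper oxidase that loads exported iron onto transferrin. It stood at 327, 571 and 302 scaled CPM in KO at day 5, against 31.1, 25.5, 22.9 and 26.4 in KO at day 0. In WT it stood at 464, 395 and 534 at day 5, against 31.7 and 69.0 at day 0. The days were far apart, and the higher WT day 0 library was again the one with Xist. Cp showed the largest change of the 9 genes in both genotypes, by 3.84 ± 0.25 on the log2 scale in KO, 14.3-fold (limma adjusted p = 1.27e-07), and by 3.28 ± 0.30 in WT, 9.74-fold (limma adjusted p = 2.59e-06). Without WT day 0 replicate 1 the WT change was 2.73 and without replicate 2 it was 3.84. Hps3 overlaps the Cp locus on the opposite strand and held 30.2 to 39.9 CPM in all libraries. Of the distinct 50-base runs of Cp, 0.618% also occur in Hps3. Only reads of that shared stretch cannot be told apart without strand.

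Hamp (chromosome 7, 30942368 to 30944032, minus strand) encodes hepcidin, the hormone that closes ferroportin. It was barely detected: the summed reads were 11 in KO day 5, 12 in KO day 0, 2 in WT day 5 and 23 in WT day 0 kidneys. Scaled CPM was 0.176, 0.0493 and 0.279 in KO at day 5, against 0, 0.531, 0.130 and 0.179 in KO at day 0, and 0.0473, 0 and 0.0438 in WT at day 5, against 0.666 and 0.725 in WT at day 0. Only the 2 WT day 0 libraries stood above the filter level of 0.539 CPM, so Hamp was tested only through that group and had to be higher there. The fitted WT change was -1.17 ± 0.27 (limma adjusted p = 0.00337), and KO showed -0.05 ± 0.23 (limma adjusted p = 0.866). As reads per depth, WT day 5 was 0.0604 of WT day 0 (exact 95% binomial interval 0.00690 to 0.244) and KO day 5 was 1.19 of KO day 0 (0.478 to 2.96). These intervals cover counting error only. The other 8 genes exceeded the filter level in all 12 libraries.

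**Figure D2:**
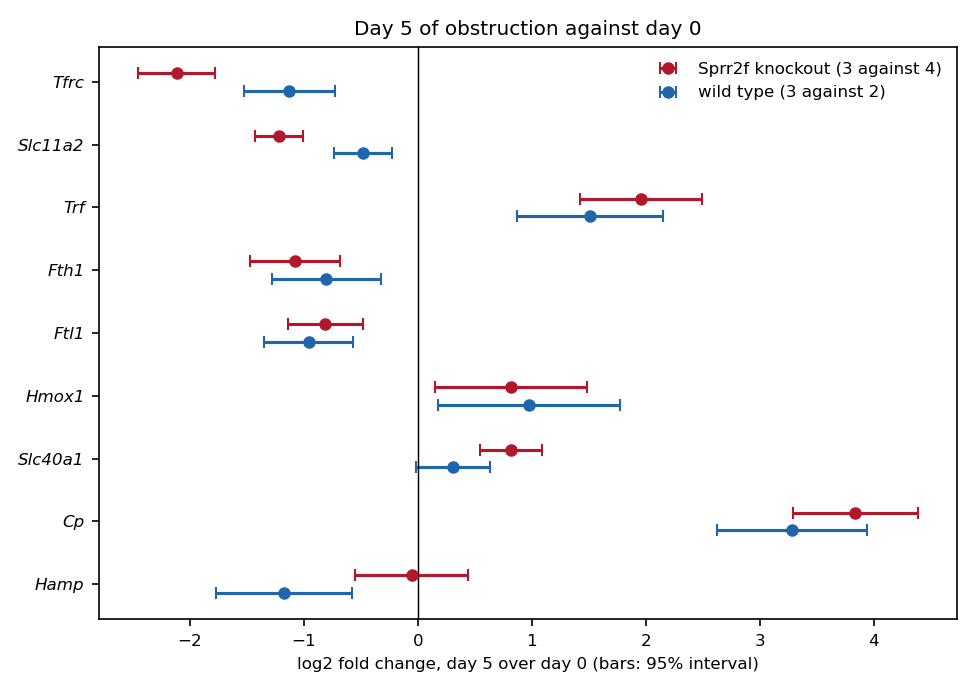
Log2 change with obstruction (day 5 over day 0) of each iron handling gene in KO and in WT, with 95% intervals from limma. Hamp in KO and Slc40a1 in WT did not pass an adjusted p under 0.05. Cp (3.84 in KO and 3.28 in WT) and Trf lie to the right, and Tfrc (-2.12 in KO and -1.13 in WT), Slc11a2, Fth1 and Ftl1 to the left in both genotypes.

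Per kilobase of transcript, the storage message Fth1 was the most abundant of the 9 in every group, at 2509.5 scaled CPM per kilobase in KO day 5, 5283 in KO day 0, 2376 in WT day 5 and 4151 in WT day 0 kidneys. Ftl1 came next at 163, 282, 138 and 268 in the same groups. The order below them changed with obstruction. In day 5 kidneys Cp followed Ftl1, at 97.7 in KO and 113 in WT, and Tfrc was the lowest apart from Hamp, at 6.17 in KO and 7.58 in WT. In day 0 kidneys Slc11a2 followed Ftl1, at 51.8 in KO and 30.6 in WT. Cp was the lowest apart from Hamp in KO at day 0, at 6.47 ± 0.836, while in WT at day 0 Cp (12.3 ± 6.45), Hmox1 (16.5 ± 2.88) and Tfrc (16.5 ± 0.132) were not separated beyond their spread (SD). Trf was at 44.5 in KO and 50.0 in WT at day 5, against 11.3 in KO and 19.9 in WT at day 0.

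Within libraries, the balance of export to uptake message differed between the days. The ratio of Slc40a1 to Tfrc per kilobase was 4.69 ± 1.65 in KO at day 5, against 0.594 ± 0.152 in KO at day 0, and 3.65 ± 0.333 in WT at day 5, against 1.34 ± 0.00103 in WT at day 0 (SD). Each day 5 library (3.31 or above) exceeded each day 0 library (1.34 or below), and no scaling factor enters a ratio within a library. Storage to uptake, Fth1 to Tfrc, was 423 ± 120 in KO at day 5, against 199.7 ± 36.1 in KO at day 0, without overlap. In WT it was 324 ± 101 at day 5, against 251 ± 50.2 at day 0, with overlap: ferritin and receptor messages fell together. Cp to Trf was 2.22 ± 0.928 in KO at day 5, against 0.571 ± 0.0450 in KO at day 0, and 2.27 ± 0.260 in WT at day 5, against 0.666 ± 0.134 in WT at day 0, again without overlap, so that Cp changed more than Trf in both.

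**Figure D3:**
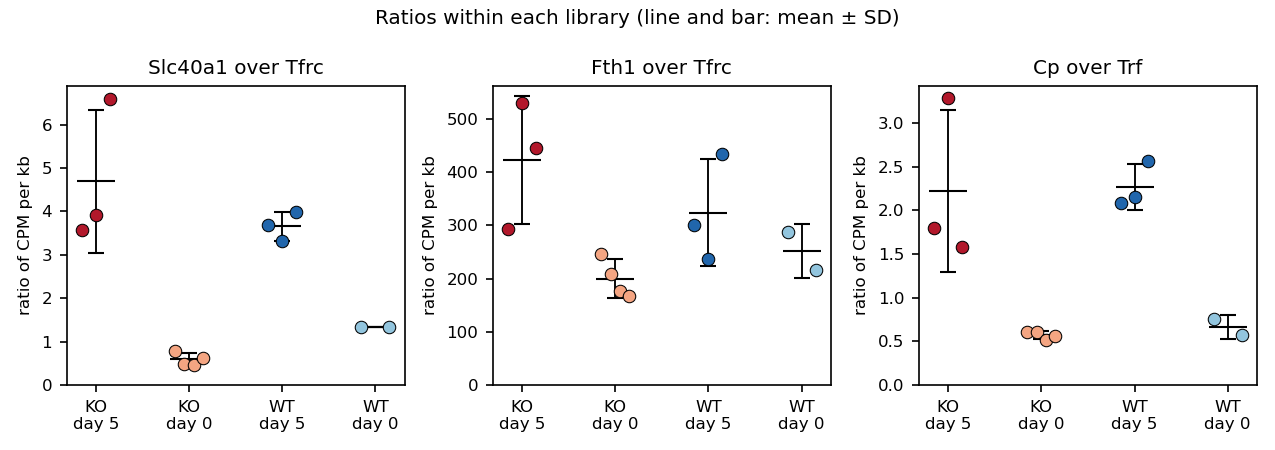
Ratios of per-kilobase levels within each library, by group, where points are libraries, shown with the group means. Slc40a1 over Tfrc lay at 3.31 to 6.58 in the day 5 libraries of both genotypes and at 0.467 to 1.34 in the day 0 libraries.

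The comparison of KO with WT in obstructed kidneys addresses whether loss of Sprr2f changes these genes during injury. None of the 9 was called at day 5, where 0% of all tested genes were called, and none of the 9 had an unadjusted p under 0.05, against 5.67% of all tested genes. Since no gene was called, Sprr2f itself, with the day 5 values given above, was not called either. Tfrc differed by -0.31 (95% interval -0.67 to 0.05, KO over WT), Hmox1 by 0.10 (-0.61 to 0.81), Slc40a1 by -0.00 (-0.29 to 0.29) and Slc11a2 by 0.01 (-0.21 to 0.24). The intervals of Cp (-0.27, -0.85 to 0.32) and Fth1 (0.07, -0.35 to 0.50) also spanned 0. Hmox1 went opposite ways within the sex-chromosome patterns. In Xist libraries it was 33.5 and 41.8 scaled CPM in KO, against 47.8 and 46.3 in WT, a difference of -0.34 (limma adjusted p = 0.496). In Y-linked libraries it was 116 in KO, against 59.6 in WT, a difference of 0.96 (limma adjusted p = 0.298) that compares 2 single libraries. The intervals above do not show that the genotypes were alike: they leave room for differences of the sizes given. Libraries of KO and WT overlapped for 8 of the 8 genes other than Hamp, where 9.93% of all tested genes did not overlap. Hamp held 11 reads in KO and 2 in WT, and the library of each genotype closest to the other held 1 read.

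At day 0 no member was called either, where 0.0166% of all tested genes were. Hamp is again left out of the counts, since its WT level at day 0 brought it into the test. The unadjusted p was under 0.05 for 5 of the other 8, against 15% of all tested genes, and libraries of KO and WT did not overlap for 5 (Slc11a2, Tfrc and Hmox1 higher in KO, Slc40a1 and Cp lower), against 25.3%. Slc11a2 was closest to the threshold: it averaged 157 ± 17.5 scaled CPM in KO and 92.5 ± 4.76 in WT (SD, n = 4 and 2), a difference of 0.75 ± 0.11 on the log2 scale (limma adjusted p = 0.0531). Its difference stayed between 0.68 and 0.82 in 23 alternative settings. It passed in 11 of them, among them DESeq2 (0.78, adjusted p = 6.94e-07) and the sex-chromosome pattern as a covariate (0.80, limma adjusted p = 0.0166), but not in the Y-linked libraries alone (0.69, limma adjusted p = 0.307), where WT has 1 library. Tfrc was higher in KO by 0.68 ± 0.18 (limma adjusted p = 0.139), and DESeq2 called it (0.71, adjusted p = 0.0122). Slc40a1 differed by -0.51 ± 0.14 (limma adjusted p = 0.151).

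Cp and Trf at day 0 turned on a single WT library. In Y-linked libraries Trf was 26.5 to 32.1 scaled CPM in the 4 KO libraries and 26.2 in the WT library, and Cp was 22.9 to 31.1 in KO and 31.7 in WT. The WT library with Xist held 76.0 for Trf and 69.0 for Cp, and there is no KO day 0 library with Xist to set beside it. Over both WT libraries the difference was -0.62 ± 0.28 for Trf (limma adjusted p = 0.327) and -0.82 ± 0.29 for Cp (limma adjusted p = 0.217). Without the Y-linked WT library the differences were -1.37 for Trf and -1.37 for Cp, and without the Xist one they were 0.15 and -0.26. Each of these fits sets the 4 KO libraries against a single WT library, so only the sizes are given. Genotype and sex-chromosome pattern cannot be told apart for these 2 genes at day 0.

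**Figure D4:**
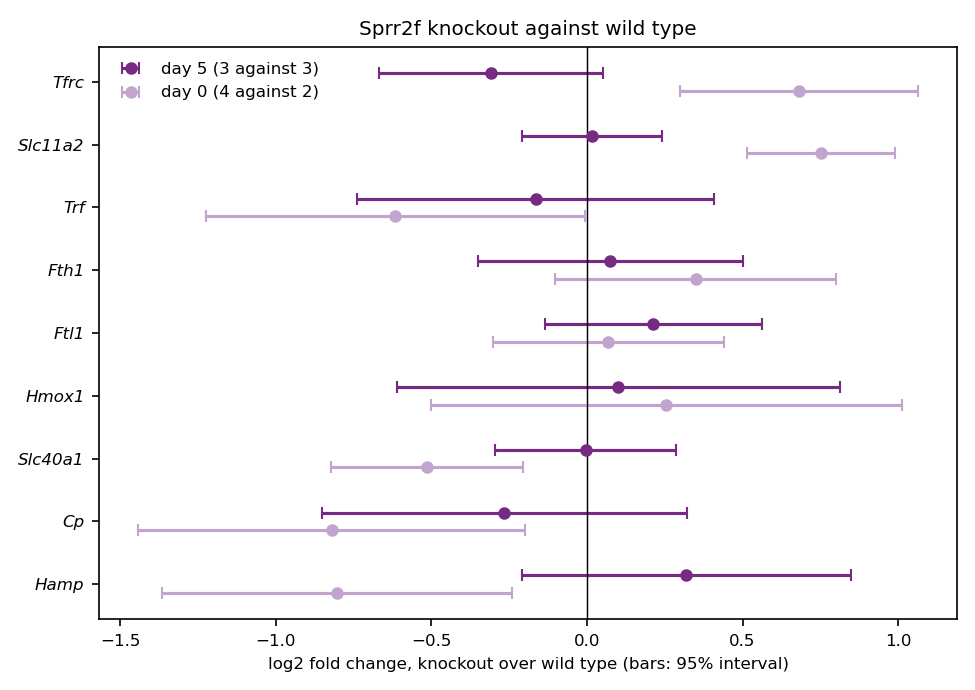
Log2 difference of KO over WT at day 5 and at day 0 for each iron handling gene, with 95% intervals from limma; no gene passed an adjusted p under 0.05. At day 5 all intervals span 0, and at day 0 those of Slc11a2 (0.75) and Tfrc (0.68) lie above 0 and those of Slc40a1 (-0.51), Hamp, Cp and Trf below it.

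The change with obstruction was not called different between the genotypes for any of the 9 genes, where 0.00553% of all tested genes were called. The unadjusted p of this interaction was under 0.05 for 3 of the 8 genes other than Hamp, against 7.59% of all tested genes. They were Tfrc (-0.99 ± 0.24, limma adjusted p = 0.402), Slc11a2 (-0.74 ± 0.15, limma adjusted p = 0.334) and Slc40a1 (0.51 ± 0.20, limma adjusted p = 0.619). The value of Hamp (1.12 ± 0.36, limma adjusted p = 0.586) rests on the WT day 0 level that brought it into the test. A negative value means a deeper fall in KO. DESeq2 on the recovered reads called Tfrc (-1.01, adjusted p = 0.0349) and Slc11a2 (-0.77, adjusted p = 0.00504). For both genes KO and WT values overlapped at day 5 and not at day 0. These interactions share their day 0 libraries with the day 0 comparison and are not separate evidence of it.

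The other genes of iron and heme handling were read from a list of 83 symbols in 10 groups, of which 77 genes could be tested. In KO 18 rose (23.4%) and 37 fell (48.1%), against 29.4% and 25.4% of all tested genes. In WT 12 rose (15.6%) and 38 fell (49.4%), against 24.5% and 22.6%. The lists had median log2 changes of -0.21 and -0.27, against 0.07 and 0.04 over all tested genes. None was called between genotypes on either day or in the interaction. In the group with the most genes, mitochondrial iron and iron-sulfur clusters, 18 of 20 fell and none rose in each genotype, with medians of -0.97 in KO and -0.94 in WT. Nfs1, the sulfur donor enzyme of cluster assembly, fell by 1.34 ± 0.07 in KO and 1.29 ± 0.09 in WT. Cisd1, which encodes a protein of the outer mitochondrial membrane that holds a cluster, fell by 1.46 ± 0.09 in KO and 1.60 ± 0.11 in WT, and Fdx1, an electron carrier with a cluster, fell by 1.46 ± 0.09 in KO and 1.37 ± 0.11 in WT (limma adjusted p at most 8.90e-07 for the 3 genes). Heme synthesis genes fell likewise, 6 of 9 in KO and 7 of 9 in WT with none higher. Fech, which inserts iron into the heme ring, changed by -1.02 ± 0.07 in KO and -0.87 ± 0.09 in WT, Cpox by -1.51 ± 0.17 and -0.97 ± 0.20, and Urod by -0.55 ± 0.06 and -0.70 ± 0.08, all called by limma. Proximal tubule marker sums were lower in the same day 5 kidneys, as given above, and their part in these falls was not tested.

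Of the 3 genes that sense iron for the regulatory proteins, Aco1, which encodes iron regulatory protein 1, fell by 1.26 ± 0.07 in KO and 1.22 ± 0.08 in WT. Ireb2, which encodes iron regulatory protein 2, changed by -0.50 ± 0.09 in KO and -0.35 ± 0.11 in WT, and both passed. Fbxl5, whose product marks Ireb2 protein for degradation when iron is present, was called in KO (-0.20 ± 0.06, limma adjusted p = 0.0132) and not in WT (-0.08 ± 0.07, limma adjusted p = 0.417). Of 4 other storage genes 2 (50%) fell in each genotype, against 25.4% of all tested genes in KO and 22.6% in WT. Ncoa4, the receptor that takes ferritin to lysosomes, fell in WT (-0.99 ± 0.19, limma adjusted p = 0.000726) and was at -0.24 ± 0.16 in KO (limma adjusted p = 0.208). The iron chaperone genes Pcbp1 and Pcbp2 changed by -0.33 ± 0.07 and -0.21 ± 0.07 in KO, both called, and by -0.17 ± 0.09 and -0.28 ± 0.09 in WT, where only Pcbp2 was called. In heme breakdown, Blvra, a biliverdin reductase, fell by 0.82 ± 0.07 in KO and 0.75 ± 0.09 in WT, and the constitutive heme oxygenase Hmox2 fell by 0.45 ± 0.08 in KO and 0.49 ± 0.09 in WT, opposite in sign to Hmox1. Blvrb was not called in either genotype (-0.07 ± 0.15 in KO and 0.45 ± 0.18 in WT).

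**Figure D5:**
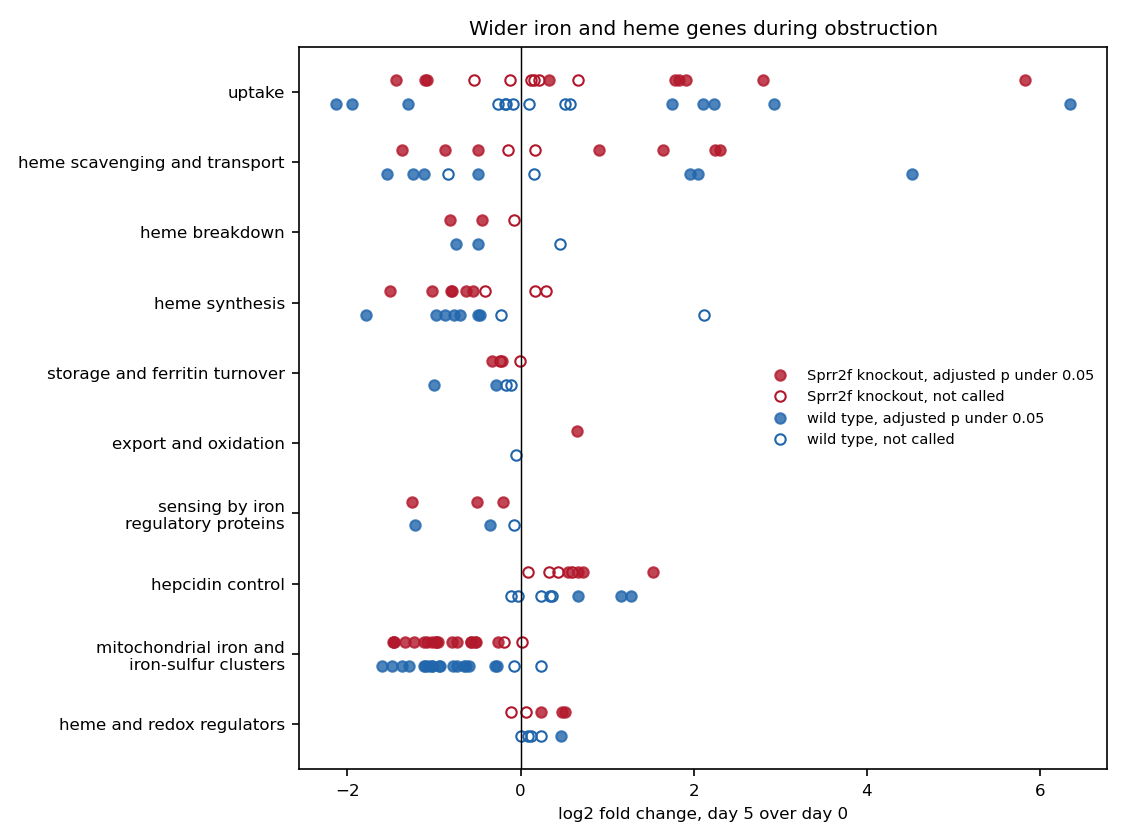
Log2 change with obstruction of the tested genes in each of the 10 wider iron and heme groups, KO above WT, where each point is 1 gene, filled where called by limma. Mitochondrial iron and iron-sulfur cluster genes (medians -0.97 in KO and -0.94 in WT) and heme synthesis genes lie left of 0, while uptake and heme scavenging genes spread to both sides.

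Uptake genes other than Tfrc and Slc11a2 moved both ways, in shares near those of all tested genes. Of 15, 6 (40%) were higher and 3 (20%) lower in KO, and 5 (33.3%) higher and 3 (20%) lower in WT, against 29.4% and 25.4% of all tested genes in KO and 24.5% and 22.6% in WT. The 3 lower genes were Slc39a8, Lrp2 and Cubn in both genotypes, and Lrp2 and Cubn are also counted among the proximal tubule markers. Lcn2, an injury protein that binds iron-carrying siderophores and is also counted among the tubular injury markers, rose by 5.83 ± 0.26 in KO and 6.35 ± 0.32 in WT. Steap1, of the metalloreductase family, rose by 1.79 ± 0.19 in KO and 1.75 ± 0.23 in WT. Meltf, a membrane-bound relative of transferrin, had fitted changes of 2.80 ± 0.24 in KO and 2.93 ± 0.28 in WT. At day 0 Meltf was at most 0.247 scaled CPM in KO and 0.181 in WT, under the filter level of 0.539 CPM. It passed the filter only through the day 5 libraries, where it was high, so its counted rise is no separate evidence. Heme scavenging and transport genes split 4 higher (44.4%) to 3 lower (33.3%) of 9 in KO, and 3 higher (33.3%) to 4 lower (44.4%) in WT. Lrp1, a receptor for heme bound to hemopexin, rose by 1.64 ± 0.16 in KO and 1.96 ± 0.19 in WT. The exporter Abcg2 changed by -1.37 ± 0.08 in KO and -1.55 ± 0.09 in WT, and the heme and folate carrier Slc46a1 by -0.87 ± 0.09 in KO and -1.11 ± 0.11 in WT (all called by limma).

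Of 8 genes that control hepcidin in the liver, 4 (50%) rose in KO and 3 (37.5%) in WT, against 29.4% and 24.5% of all tested genes, and none fell. Both counts include Tmprss6. Tmprss6, a protease that lowers hepcidin in hepatocytes, was at 1.53 ± 0.37 in KO and 1.28 ± 0.44 in WT (limma adjusted p = 0.00373 and 0.0314). Its KO day 0 libraries were at most 0.380 scaled CPM, under the filter level of 0.539 CPM. In KO it stood above that level only at day 5, where it was high, so its rise in the KO count is no separate evidence. Its WT day 0 libraries stood at 0.121 and 2.30 scaled CPM, against 2.59 to 2.88 at day 5, and the WT change was 0.19 without WT day 0 replicate 1 (limma adjusted p = 0.616) and 2.37 without replicate 2. Bmp6, the ligand that raises hepcidin, was called in KO (0.67 ± 0.13, limma adjusted p = 0.000643) and not in WT (0.24 ± 0.15, limma adjusted p = 0.217). Hfe, a partner of the transferrin receptor, was called in KO (0.72 ± 0.15, limma adjusted p = 0.00109) and not in WT (0.34 ± 0.18, limma adjusted p = 0.128). The only tested gene of export and oxidation, the ceruloplasmin relative Heph, was called in KO (0.65 ± 0.24, limma adjusted p = 0.0372), though its libraries overlapped between days and leaving out any 1 of 5 of the 7 KO libraries ended the call, and stood at -0.05 ± 0.29 in WT. Of the 5 heme and redox regulators 3 rose in KO and 1 in WT. Nfe2l2, an activator of Hmox1, was at 0.48 ± 0.11 in KO (called) and 0.23 ± 0.13 in WT (not called), Hif1a at 0.51 ± 0.12 in KO and 0.46 ± 0.14 in WT (both called), and Bach1, a repressor of Hmox1, at 0.24 ± 0.08 in KO (called) and 0.09 ± 0.10 in WT (not called). For all of these the difference between genotypes was tested as the interaction and none passed. Leaving out 1 library also ended the calls of Bach1, Fbxl5 and Pcbp2 in KO and of Hif1a, Ireb2 and Pcbp2 in WT, and without WT day 0 replicate 1 the WT change of Cpox was -0.57 (limma adjusted p = 0.0261).

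Across the 12 libraries the genes with log2 values most like Hmox1 were Add1 (Pearson r = 0.962), Raet1e (0.958) and Ralb (0.954). Those most like Tfrc were Gm15848 (0.989), Akap11 (0.981) and Gmfb (0.976), and those most like Slc40a1 were Sh3pxd2a (0.980), Dop1b (0.972) and Zfp516 (0.967). These correlations are a description over libraries that fall into day 5 and day 0 clusters. Gm15848 stood at 3.32 ± 0.330 scaled CPM in KO at day 5, against 21.0 ± 1.70 in KO at day 0, and 3.93 ± 0.581 in WT at day 5, against 12.0 ± 0.183 in WT at day 0 (SD). It was picked for its likeness to Tfrc.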

How the data were processed

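Kidney RNA from 12 mouse libraries was sequenced with 50-base reads. Per the submitters' processing notes, STAR, SAMtools, HTSeq and GRCm38.p6 were used; versions, annotation release and strand setting are not given in the sources used here. The values deposited by the authors are CPM, and every column has an equal sum. Whole reads were recovered from the steps (100% of 665652 values within 0.001 of a whole number). The edgeR filter filterByExpr, with a count of at least 10 and a total of at least 15, left 18093 of 55471 genes. The 4 groups were fitted together in limma 3.58.1 (R 4.3.3, empirical Bayes with trend) on log2(CPM over TMM factor + 0.5), which understates changes of low genes. P-values were adjusted by Benjamini-Hochberg over all tested genes and called at 0.05. Folds are on this scale.

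Alternatives were edgeR 4.0.16 and DESeq2 1.42.0 on recovered reads, library size only, RLE factors, pseudocounts of 0.1 and 1 CPM, no filter, a stricter filter, only the compared groups, the sex-chromosome pattern as a covariate or as a restriction, and each library left out. Members, lists and tests were chosen with earlier results of these data known. Named besides the 9 genes are up to 3 genes per wider list with the smallest adjusted p for obstruction and, for Hmox1, Tfrc and Slc40a1, the 3 most correlated genes. Replicate libraries differed beyond sampling noise (chi-square per degree of freedom 6.65 to 62.2). Coordinates are GENCODE M21, GRCm38. Figures used matplotlib 3.10.9 in Python 3.11.15.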

Additional observations from a re-analysis of the deposited data

How the results depend on the processing

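The obstruction falls of Tfrc and Ftl1 and the rises of Cp and Trf passed in both genotypes under every alternative that could be run, and so did the KO changes of Slc11a2, Fth1 and Slc40a1. Hmox1 passed in 15 of 23 alternatives in KO and 11 of 24 in WT. With the sex-chromosome covariate, the KO changes of Slc40a1 (0.66), Fth1 (-0.83), Ftl1 (-0.72) and Trf (1.67) were smaller than without it. Those of Tfrc (-2.25), Slc11a2 (-1.28), Cp (3.92) and Hmox1 (1.36) were larger. Of the 9 genes, 7 to 8 were called for KO obstruction and 6 to 8 for WT obstruction when each library was left out in turn, 0 to 0 for genotype at day 5, 0 to 3 for genotype at day 0 and 0 to 1 for the interaction. Without Hamp these were 7 to 8 for KO obstruction and 5 to 7 for WT obstruction, lowest without WT day 0 replicate 1. Leaving out either WT day 0 library, or keeping only Xist or only Y-linked libraries, leaves a single WT day 0 library. Calls in such fits hold no spread of that group. Genotype at day 0, with 0 called, gave 2 with DESeq2 (Slc11a2 and Tfrc) and 1 (Slc11a2) with library size only, RLE factors, a pseudocount of 0.1 CPM, no filter, the stricter filter and the sex-chromosome covariate. The interaction, with 0 called, gave 2 with DESeq2. The cause of these differences was not tested. With library size only, the median tested gene moved by a further 0.38 in KO and 0.37 in WT (log2) with obstruction, and 82.3% of KO calls and 81.1% of WT calls were higher, against 53.7% and 52.1%. No change called with all libraries reversed its direction. The day 0 genotype difference of Trf, not called with all libraries, was -1.37 without WT day 0 replicate 1 and 0.15 without replicate 2, and its interaction 1.19 and -0.33. Hamp dropped out under the stricter filter, the Xist-only setting has no KO day 0 library, and a fit of only the compared groups gives no interaction. No paired analysis was possible because the labels and columns carry no replicate numbers. Limits are the 2 WT day 0 libraries, the unequal sex-chromosome patterns, shared sequence of Ftl1 and Trf, and gene-level counts of RNA, which do not measure iron or protein.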
